A study of Mus musculus with 19 samples.

Results

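Stellate cell and matrix remodelling genes were followed in mouse liver as a group of 36 genes. They comprise markers of hepatic stellate cells, ligands and receptors of transforming growth factor beta (TGF-beta), matrix proteins other than collagens, enzymes that crosslink matrix, and the proteases and inhibitors that govern its turnover. Members were chosen by gene symbol. All 36 were found among the 35976 rows of the deposited counts table, and all 36 are among the 16463 genes that passed the filter on low counts and were tested. Livers came from 7 WT, 6 Het and 6 Homo mice, named by their genotype at Pkd1, the gene of polycystin-1, and each mouse gave 1 library of total RNA. Every mouse, WT included, received AAV-Cre, an adeno-associated virus that delivers the Cre enzyme. All were kept for 3 months on Western diet together with carbon tetrachloride (CCl4), a liver toxin, the study's model of NASH, fatty liver disease with inflammation. The series describes the mice as littermates. No untreated group was analysed here, so the levels below are those of livers under diet and toxin. The labels give no sex, age, litter or batch, no promoter for Cre, and no target cell for the vector, and they do not say how the Pkd1 alleles were altered.

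Hepatic stellate cells lie between the endothelium and the hepatocytes and store vitamin A. After liver injury they turn into contractile myofibroblasts, under the influence of TGF-beta and platelet-derived growth factor, and become a main source of scar matrix. That matrix is stabilised by lysyl oxidases, which crosslink collagen and elastin, is cut by matrix metalloproteinases (MMPs), and is protected by the tissue inhibitors of metalloproteinases (TIMPs).

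Library totals lay between 25.8 and 42.1 M counts (M for mega). Values below are in CPM, a gene's counts scaled to the library size, and differences are log2 fold changes with their standard error (SE) from edgeR's quasi-likelihood test. Adjusted p-values are Benjamini-Hochberg values over all genes tested, and a gene was called at an adjusted p under 0.05. The p-values measure the spread between these mice only. In whole liver, fewer cells of a type and less RNA per cell cannot be told apart. Marker genes of stellate cells outside the 36, among them Hgf, Colec11 and Cygb, summed to between 380.8 and 512.8 CPM over the 19 livers, and 10 hepatocyte markers to between 25080 and 31120 CPM, so the labelled tissue carried its markers. Gfap of the stellate cell list had 0 counts in 1 WT and 1 Het mouse, and the others of that list were read in every mouse.

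Promoter sequences are shown for 4 members named in the results below: Pdgfra and Bgn, the members whose levels ran most closely together over the mice, and Tgfbr2 and Thbs2, the members called for a slope over the mouse numbers. Only members with a single window free of exon bases were shown. Timp2 and Timp3 (203 and 40 exon bases) and Postn, with more than a single window, were therefore left out. Each is the stretch of 250 bases before the gene's start, 5′ to 3′ on the gene's strand, taken from RefSeq (GRCm38.p6), at chr5:75152001-75152250 (plus strand), chrX:73483351-73483600 (plus strand), chr9:116175364-116175613 (minus strand) and chr17:14694263-14694512 (minus strand). Capitals mark matches to the motifs described below.
Pdgfra: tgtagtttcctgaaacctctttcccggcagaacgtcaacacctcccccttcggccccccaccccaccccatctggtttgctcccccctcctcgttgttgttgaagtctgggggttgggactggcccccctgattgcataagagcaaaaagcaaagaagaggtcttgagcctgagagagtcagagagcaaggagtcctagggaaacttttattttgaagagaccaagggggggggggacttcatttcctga
Bgn: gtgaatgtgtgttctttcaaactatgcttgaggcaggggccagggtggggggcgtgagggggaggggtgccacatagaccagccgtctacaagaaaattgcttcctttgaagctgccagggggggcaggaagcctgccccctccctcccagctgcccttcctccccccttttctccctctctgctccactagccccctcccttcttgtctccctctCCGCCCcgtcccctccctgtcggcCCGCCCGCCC
Tgfbr2: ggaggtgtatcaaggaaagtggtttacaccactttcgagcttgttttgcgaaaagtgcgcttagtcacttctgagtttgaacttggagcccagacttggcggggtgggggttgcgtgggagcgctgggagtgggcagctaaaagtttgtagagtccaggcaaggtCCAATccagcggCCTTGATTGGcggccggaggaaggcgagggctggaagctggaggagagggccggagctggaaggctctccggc
Thbs2: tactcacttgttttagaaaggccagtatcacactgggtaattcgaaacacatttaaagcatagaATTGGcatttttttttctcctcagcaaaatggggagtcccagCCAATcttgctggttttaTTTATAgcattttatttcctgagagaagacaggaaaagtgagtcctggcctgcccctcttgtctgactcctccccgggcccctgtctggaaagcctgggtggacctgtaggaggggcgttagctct
A RefSeq promoter was matched for 24 of the 36 members. Motifs were searched on both strands as the letters TATAAA for the TATA box, GGGCGG for the GC box, CCAAT for the box of that name, TGANTCA for AP-1, GGAATG for TEAD factors and GTCTAGAC for SMAD factors, and the CArG box, the element of serum response factor, by its name, either exact or with 1 change within its 6 central letters. Pdgfra held no match. Bgn held 3 GC boxes, which begin 34, 10 and 6 bases before the start and of which the last 2 overlap. Tgfbr2 held 2 CCAAT boxes and 1 changed CArG box, and 1 of those CCAAT boxes lies inside the changed CArG box. Thbs2 held 1 TATA box, 126 bases before the start, and 2 CCAAT boxes. Over the 24 members, a GC box was found in 12 and a CCAAT box in 11, beside 32.7% and 33.8% of all 32851 windows of that length. Members are counted by gene and the background by window. Fbln5, Mmp12, Postn and Tgfbr1 have more than a single window and count if any of them matches. A TATA box was found in 5 members, against 12.4% of all windows, and a TEAD match in 3 (Acta2, Lrat and Timp1), against 12.6%. AP-1 letters were found in Mmp12 and Mmp13, against 6.75% of all windows. A CArG box, exact or with 1 change, was found in 5 members (Acta2, Lrat, Mmp14, Tgfbr2 and Timp3), against 8.59% of windows, and the exact one in none, against 1.47%. The SMAD palindrome was in 0 members and in 0.167% of windows. These matches describe letters in a window and show neither binding nor a cause.

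Per kilobase of merged exon, the 36 genes spanned a wide range of levels. Fn1, which encodes fibronectin, was far above the others, at a mean of 1245 CPM per kilobase over the 19 mice, in a tissue whose hepatocytes also make plasma fibronectin. The small proteoglycans Dcn (decorin) and Bgn (biglycan) came next at 26.6 and 18.8 CPM per kilobase, followed by Sparc, a collagen-binding matricellular protein, at 13.3 and Tgfbr1, the signalling TGF-beta receptor, at 10.6. Acta2, the smooth muscle actin that defines the myofibroblast, ranked 26 of 36 at 0.980 CPM per kilobase. Timp1 ranked 30 at 0.521, and Mmp13, a collagenase, was lowest at 0.0897, on 1 to 14 counts per library. Of the 35 pairs of neighbours in this order, 33 had ranges over the 19 mice that overlap, and 2 did not: Fn1 with Dcn, and Tgfbr1 with Rgs5.

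**Figure D1:**
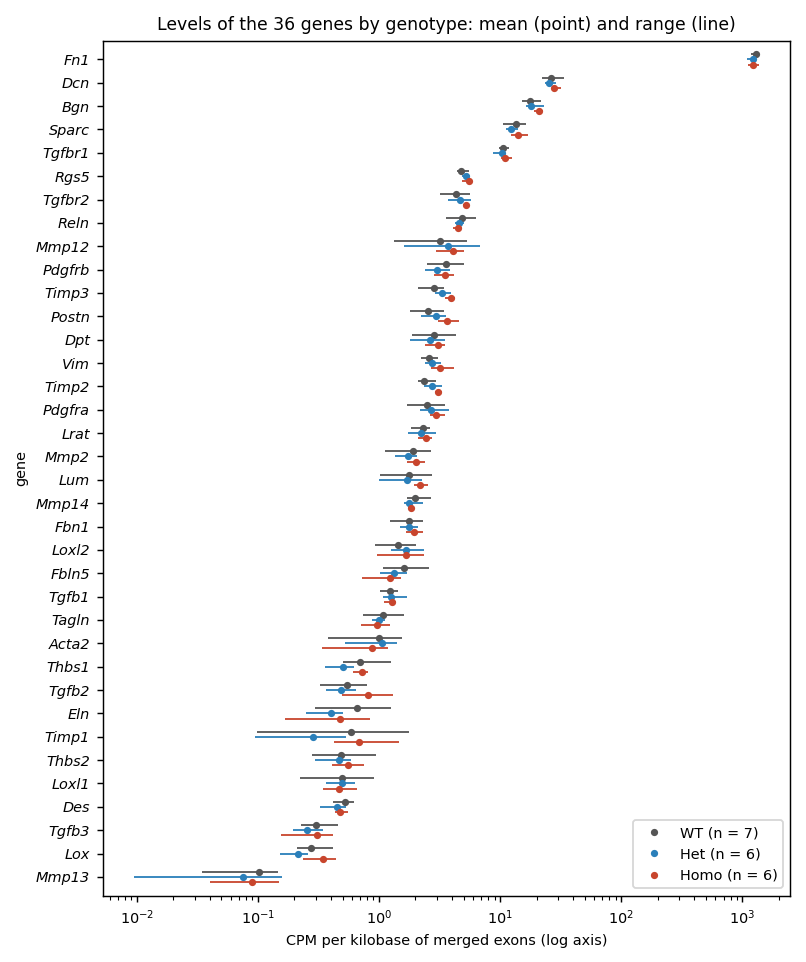
Level of each of the 36 genes in CPM per kilobase of merged exon (log axis), by genotype; points are means and lines run from the lowest to the highest mouse (WT n = 7, Het n = 6, Homo n = 6). Fn1 stands far above the rest at 1245 CPM per kilobase and Mmp13 is lowest at 0.0897, and for most genes the lines of the 3 genotypes overlap.

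The comparison of Homo with WT asks which of these genes differ when both alleles of Pkd1 are mutant. By edgeR's quasi-likelihood test, 0 of the 36 members were called, where 0.480% of all genes tested were. DESeq2 called 3 of the 35 members to which it gave an adjusted p (Postn, Timp2 and Timp3), beside 1.93% of all genes, and limma-voom called 1 (Timp3), beside 0.553%. At an unadjusted p under 0.05, 8 members (22.2%) passed, all of them higher in Homo: Vim, Rgs5, Tgfb2, Tgfbr2, Postn, Bgn, Timp2 and Timp3. The same rule passed 12.9% of all genes in either direction and 6.37% in the higher direction. The median log2 fold change of the members was 0.10, with 25 of 36 above 0, beside a median of 0.0019 over all genes, of which 50.3% were above 0. The members' median moved to 0.18 without WT mouse 2, to 0.05 without WT mouse 3, to 0.06 without WT mouse 12 and to 0.17 within mice 8 to 13. Only Timp3 was higher in every Homo mouse than in every WT mouse, which held for 0.528% of all genes.

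The comparison of Het with WT called 0 of 36 members by edgeR, DESeq2 and limma-voom, which called 0.0243%, 0.170% and 0.0243% of all genes. At an unadjusted p under 0.05, 3 members passed (8.33%): Thbs1, lower in Het, and Timp2 and Timp3, higher. That share stands beside 8.84% of all genes, and the 2 higher members (5.56%) beside 4.57%, so it lies near the background. The count of 3 became 1 without WT mouse 1, WT mouse 2 or Het mouse 14, 5 without WT mouse 9 or Het mouse 4, 1 without mice 1 to 3, and 0 with the mouse number as a covariate. The members' median was -0.06, with 13 of 36 above 0. Over all genes the median was -0.0043, with 49.1% above 0. The members' median was -0.01 without WT mouse 2, -0.10 without WT mouse 3 or 12 and -0.11 without WT mouse 13. It was -0.03 without mice 1 to 3 and -0.04 with the mouse number as a covariate or by limma-voom. Homo against Het likewise called 0 of 36 by the same 3 tools, which called 0.182%, 0.620% and 0.0972% of all genes. At an unadjusted p under 0.05, 7 members passed (19.4%), all higher in Homo: Tgfb2, Postn, Thbs1, Bgn, Lox, Timp1 and Timp3. Of all genes, 6.29% passed in either direction and 3.94% in the higher one. The count of 7 became 4 without Het mouse 19, Homo mouse 16 or Homo mouse 17, and 4 within mice 14 to 20. The members' median was 0.16, with 30 of 36 above 0, and it was 0.04 within mice 14 to 20. Over all genes the median was -0.0012, with 49.7% above 0. Of the members, 0 were higher in every Homo than in every Het mouse, which held for 0.510% of genes. The 3 comparisons share libraries, so their values are set side by side and are not independent of each other.

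**Figure D2:**
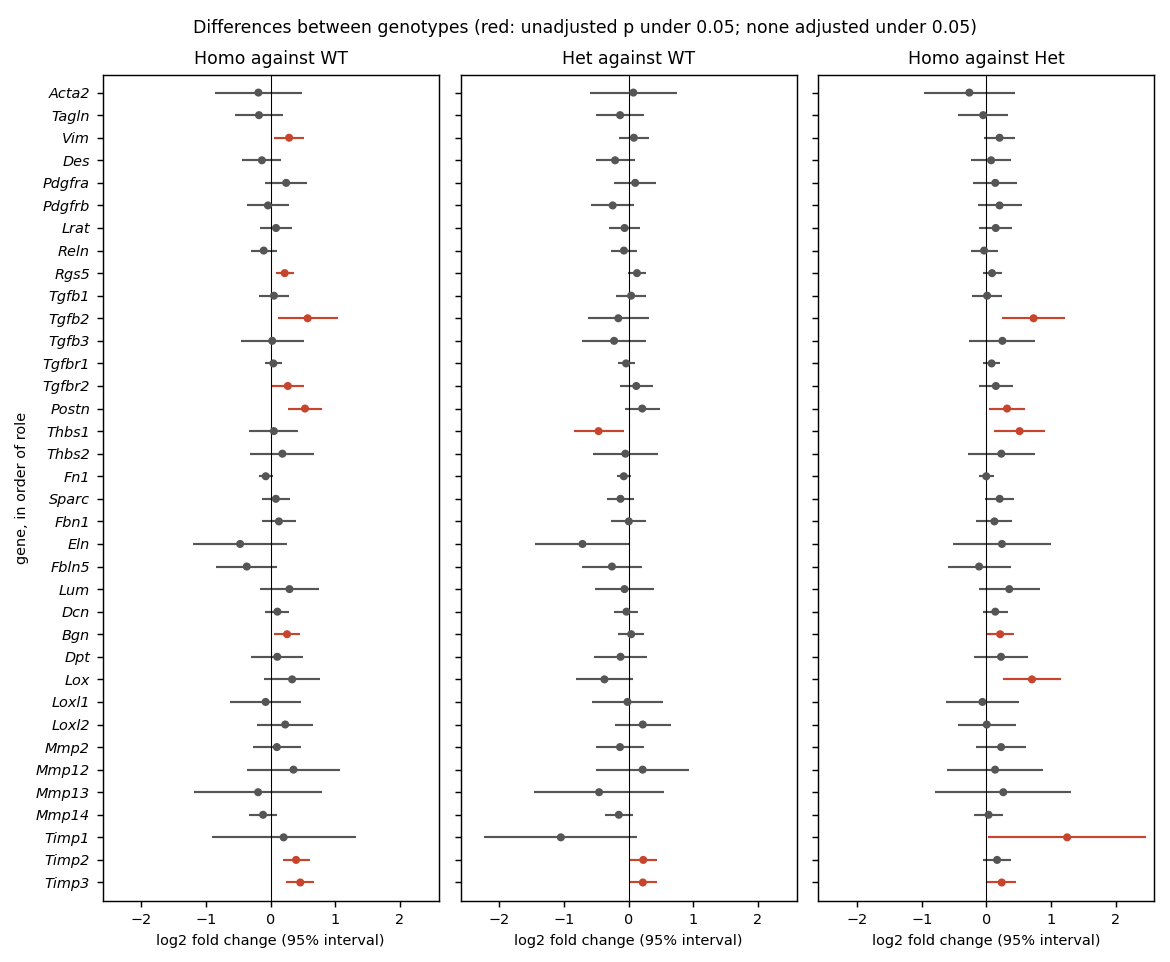
Log2 fold change of each gene with its 95% interval in the 3 comparisons, genes in order of role; red marks an unadjusted p under 0.05. All 8 red genes of Homo against WT and all 7 of Homo against Het lie to the right of 0, and none passed the adjusted threshold.

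Among the 9 stellate and contractile markers, 4 had a log2 fold change of Homo against WT above 0, and their median was -0.04. Rgs5, a regulator of G protein signalling in pericytes and stellate cells, was at 20.1 CPM in the lowest WT mouse, 20.9 at the median and 25.4 in the highest. Its lowest, median and highest levels were 21.9, 23.2 and 25.8 CPM in Het and 21.9, 25.6 and 26.9 CPM in Homo. WT mouse 9 stood above the other 6 WT mice and inside the Homo range, so the groups overlap. Between Homo and WT the log2 fold change came to 0.22 ± 0.07 (SE; adjusted p = 0.177). Vim (vimentin), an intermediate filament of mesenchymal cells, had a lowest, median and highest level of 10.6, 12.1 and 14.5 CPM in WT, 11.3, 12.3 and 15.5 CPM in Het and 12.8, 14.7 and 19.6 CPM in Homo. One Homo mouse lay above all others, and the remaining 5 fell within or just above the WT and Het ranges. The difference of Homo from WT was 0.28 ± 0.11 on the log2 scale (adjusted p = 0.279).

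Acta2 did not set the genotypes apart. Its lowest, median and highest levels were 0.834, 2.22 and 3.40 CPM in WT, 1.14, 2.42 and 3.06 CPM in Het and 0.737, 2.18 and 2.59 CPM in Homo. Each genotype held at least 1 mouse near 1 CPM and others above 2 CPM, so the ranges overlap almost wholly. Homo against WT came to -0.19 ± 0.33 on the log2 scale (adjusted p = 0.856), with a 95% interval from -0.87 to 0.49 that spans both directions. Acta2 is close in sequence to other actin genes and the handling of reads that match several places is not given, so its count is uncertain. Tagln (transgelin), an actin-binding protein of contractile cells, gave -0.18 ± 0.18 (adjusted p = 0.709), and 62.4% of its exon bases are shared with Gm48529 on the other strand. Des (desmin), the muscle-type filament of stellate cells, gave -0.14 ± 0.14. Pdgfra and Pdgfrb, the receptors of platelet-derived growth factor, gave 0.24 ± 0.16 and -0.04 ± 0.16. Lrat, which esterifies vitamin A for storage, and Reln (reelin), both markers of quiescent stellate cells, gave 0.08 ± 0.12 and -0.11 ± 0.10. Of these 5 genes, the lowest adjusted p in Homo against WT was 0.542, that of Pdgfra. The 9 markers in Het against WT lay between -0.25 and 0.13, and in Homo against Het between -0.26 and 0.20.

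Of the TGF-beta ligands and receptors, all 5 had a log2 fold change of Homo against WT above 0, from 0.02 to 0.57. Over all genes, 50.3% were above 0. With 1 mouse left out, Tgfb3 ran from -0.09 to 0.16 and Tgfbr1 from -0.003 to 0.07, so not every direction held. Tgfb2, a ligand, showed the largest of the 5 values. Its lowest, median and highest levels were 1.88, 2.85 and 4.65 CPM in WT, 2.13, 2.67 and 3.72 CPM in Het and 2.85, 4.58 and 7.50 CPM in Homo. Homo mouse 8 was the highest of the 19, and the lowest Homo mouse sat at the WT median, so the groups overlap. Within Homo the level fell with the mouse number, from 7.50 CPM in mouse 8 to 2.85 CPM in mouse 18. In edgeR's fit with genotype and mouse number, the Tgfb2 slope was -0.038 ± 0.017 log2 units per number (adjusted p = 0.214), not called. Homo against WT was 0.57 ± 0.22 (adjusted p = 0.281) and Homo against Het 0.73 ± 0.23 (adjusted p = 0.423), in a gene read at 64 to 252 counts. Beside them, 10 bile duct markers summed to between 135.2 and 229.1 CPM in WT, 131.1 and 210.9 in Het and 202.2 and 268.4 in Homo. Cftr of that list had 0 counts in 2 Het mice and Cldn7 in 1, and the other 8 were read in every mouse. Krt7, Krt19 and Tspan8 of that list were called higher in Homo than in WT, and these 3 and Epcam higher than in Het. Over all genes, 0.480% were called in Homo against WT and 0.182% in Homo against Het. Not all of the list rose: 7 of the 10 had a log2 fold change above 0 in Homo against WT, and 9 in Homo against Het. The shares of all genes above 0 were 50.3% and 49.7%. In Homo against WT, Krt7 and Krt19 were called in all 19 fits with 1 mouse left out and Tspan8 in 13, and without mice 1 to 3 their adjusted p was 0.0160, 0.0553 and 0.234. What part these cells have in the Tgfb2 level was not tested.

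Tgfbr2, the receptor that binds the ligand first, was at a lowest, median and highest level of 26.3, 35.1 and 46.3 CPM in WT, 30.1, 38.5 and 46.8 CPM in Het and 40.1, 43.2 and 44.5 CPM in Homo. The 6 Homo mice were close together, at the upper end of the wide WT and Het ranges. Homo against WT was 0.27 ± 0.12 (log2; adjusted p = 0.363). It was 0.06 ± 0.10 without mice 1 to 3, all of them WT, and 0.10 ± 0.11 with the mouse number as a covariate. Tgfb1 and Tgfb3, the other ligands, gave 0.05 ± 0.11 and 0.02 ± 0.23, and Tgfbr1 gave 0.04 ± 0.06. Of 30 further genes of the pathway (latent binding proteins, activating integrins, Smads, their regulators and targets), edgeR's quasi-likelihood test called 0 in each genotype comparison. In Homo against WT, 6 of the 30 passed an unadjusted p under 0.05, all higher, and the median of the 30 was 0.16, with 23 above 0. Of all genes, 12.9% passed in either direction and 6.37% in the higher one, with a median of 0.0019 and 50.3% above 0. Smad2, a transducer of the pathway, gave 0.24 ± 0.08 (adjusted p = 0.213), and Itgb6, a subunit of an integrin that activates latent TGF-beta, gave 1.93 ± 0.69 (adjusted p = 0.242) at 0 to 2.32 CPM.

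Periostin (Postn; GRCm38 chromosome 3, 54361109 to 54391037), a matricellular protein of injured tissue, headed the matricellular and adhesive group. Its lowest, median and highest levels were 15.7, 22.0 and 29.9 CPM in WT, 19.5, 25.1 and 31.0 CPM in Het and 26.7, 31.6 and 39.6 CPM in Homo. WT mouse 9 lay among the Homo mice and the other 6 WT mice lay below all of them. On the log2 scale the difference was 0.53 ± 0.13 for Homo against WT (1.45-fold; adjusted p = 0.0775), 0.32 ± 0.13 for Homo against Het (adjusted p = 0.733) and 0.21 ± 0.13 for Het against WT (adjusted p = 0.660). Without WT mouse 9, Postn was called in Homo against WT (adjusted p = 0.0239). That was the only call in 19 edgeR fits with 1 mouse left out, where the adjusted p reached 0.188. Over 9 other settings, tools and sample sets the adjusted p ran from 0.0104 to 0.581. Fn1, by contrast, had nearly equal levels: 1191 to 1371 CPM per kilobase in WT, 1103 to 1287 in Het and 1114 to 1378 in Homo. Homo minus WT was -0.08 ± 0.05 on the log2 scale, with an interval from -0.19 to 0.03 (adjusted p = 0.558).

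Thbs1 (thrombospondin-1), which can release TGF-beta from its latent form, was at a lowest, median and highest level of 3.06, 3.78 and 7.70 CPM in WT, 2.19, 3.06 and 3.78 CPM in Het and 3.71, 4.48 and 4.93 CPM in Homo. Het mice were the lowest on the whole, and only the highest of them reached the Homo range. Its log2 fold change was -0.46 ± 0.18 for Het against WT (adjusted p = 0.511), 0.51 ± 0.19 for Homo against Het (adjusted p = 0.617) and 0.05 ± 0.18 for Homo against WT (adjusted p = 0.939). WT mouse 2 alone held the 7.70 CPM, and without mice 1 to 3 Het against WT moved to -0.21 ± 0.15. Thbs2, its relative, gave 0.18 ± 0.24 and Sparc 0.08 ± 0.10 for Homo against WT.

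In the elastic fibre group the values of Homo against WT were mixed and wide. Eln (elastin) was at a lowest, median and highest level of 2.39, 4.57 and 10.1 CPM in WT, 2.02, 3.45 and 4.08 CPM in Het and 1.36, 3.28 and 6.76 CPM in Homo. The highest mouse of all was WT and the lowest Homo, and the ranges overlap. Its log2 fold change was -0.47 ± 0.35 for Homo against WT (adjusted p = 0.587) and -0.71 ± 0.35 for Het against WT (adjusted p = 0.574). Without mice 1 to 3 these became -0.09 ± 0.38 and -0.33 ± 0.38, and within mice 8 to 13 Homo against WT was 0.62 ± 0.44. Fbln5 (fibulin-5), needed for elastic fibre assembly, was at 7.45, 8.05 and 17.9 CPM in WT, 7.10, 9.44 and 11.8 CPM in Het and 5.02, 9.10 and 10.6 CPM in Homo (lowest, median and highest). The Homo median was above that of WT while the log2 fold change, -0.37 ± 0.23 (adjusted p = 0.507), was below 0, with WT mice 2 and 9 at 17.2 and 17.9 CPM. Fbn1 (fibrillin-1), the microfibril protein, which shares 20.1% of its exon bases with Gm9913 on the other strand, gave 0.13 ± 0.13.

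All 4 members of the proteoglycan group, dermatopontin included, had log2 fold changes of Homo against WT above 0, from 0.10 to 0.29. Those of Homo against Het ran from 0.14 to 0.35. Over all genes, 50.3% and 49.7% were above 0. In each comparison the dermatopontin value changed sign in 1 of 9 other settings. Bgn was at a lowest, median and highest level of 92.0, 98.9 and 133 CPM in WT, 99.5, 105 and 141 CPM in Het and 116, 130 and 138 CPM in Homo. Most WT and Het mice lay below the lowest Homo mouse, with 1 Het mouse above all others. Homo against WT was 0.25 ± 0.10 (adjusted p = 0.278) and Homo against Het 0.21 ± 0.10 (adjusted p = 0.793). Lum (lumican), a proteoglycan that binds collagen fibrils, was at 2.48, 4.13 and 6.75 CPM in WT, 2.44, 4.12 and 5.53 CPM in Het and 4.75, 5.37 and 6.25 CPM in Homo (lowest, median and highest). Homo mice were packed within the wider WT range, and the difference from WT was 0.29 ± 0.22 (adjusted p = 0.596). Dcn gave 0.10 ± 0.09 and Dpt (dermatopontin) 0.10 ± 0.19.

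Lox (lysyl oxidase), the founding crosslinker, was at a lowest, median and highest level of 1.00, 1.17 and 2.00 CPM in WT, 0.729, 1.03 and 1.23 CPM in Het and 1.13, 1.75 and 2.10 CPM in Homo. Het mice were lowest and Homo mice mostly above them, with a narrow overlap. Homo against Het gave a log2 fold change of 0.70 ± 0.22 (adjusted p = 0.380), and 0.33 ± 0.21 was found against WT (adjusted p = 0.520). Loxl2, a lysyl oxidase relative, was at 5.05, 8.31 and 10.9 CPM in WT, 6.79, 8.82 and 12.6 CPM in Het and 5.24, 8.51 and 12.8 CPM in Homo (lowest, median and highest), ranges that nearly coincide. Its deposited counts fall on steps of a common size in all mice, so its values are uncertain. Homo against WT was 0.22 ± 0.21 for Loxl2 (adjusted p = 0.695) and -0.08 ± 0.26 for Loxl1, the enzyme that acts on elastin.

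The 4 proteases showed no called difference. Mmp14, a membrane-bound collagenase that activates Mmp2, was at a lowest, median and highest level of 10.1, 11.1 and 16.0 CPM in WT, 9.64, 10.1 and 13.7 CPM in Het and 10.4, 10.9 and 11.3 CPM in Homo. Its levels in Homo were tight and lay inside the other ranges, and the log2 fold change from WT was -0.12 ± 0.10 (adjusted p = 0.665). Mmp12, the macrophage elastase, was at 9.67, 19.7 and 38.6 CPM in WT, 11.6, 19.9 and 49.7 CPM in Het and 21.6, 30.3 and 36.7 CPM in Homo (lowest, median and highest). It was among the most variable members, with both ends of its range in WT and Het, and Homo against WT was 0.35 ± 0.34 (adjusted p = 0.711). Mmp2, a gelatinase, gave 0.09 ± 0.18 and Mmp13 -0.20 ± 0.47, the latter with a 95% interval from -1.18 to 0.79. Nearly all deposited Mmp2 counts are even numbers, so the Mmp2 value is uncertain.

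The protease inhibitors held 2 of the 3 members with the smallest p-values in Homo against WT, the third being Postn. Timp3 (GRCm38 chromosome 10, 86300372 to 86349506), which stays bound to the matrix, was at a lowest, median and highest level of 17.2, 23.7 and 27.8 CPM in WT, 23.8, 25.5 and 32.1 CPM in Het and 28.7, 31.9 and 34.9 CPM in Homo. Homo and WT do not overlap, and Het bridges them. Homo minus WT was 0.46 ± 0.10 on the log2 scale (1.37-fold; adjusted p = 0.0554). Het minus WT was 0.22 ± 0.10 (adjusted p = 0.561), and Homo minus Het 0.24 ± 0.11 (adjusted p = 0.781). Part of the gap rests on mice 1 to 3, the 3 lowest of all. Without them, Homo against WT was 0.30 ± 0.10 (adjusted p = 0.370), and within mice 8 to 13 it was 0.18 ± 0.11 (adjusted p = 0.847). Timp3 shares 21.3% of its exon bases with Syn3 on the other strand, and the strand setting of the counting is not given. Syn3 itself, at 9.73 to 21.1 CPM, gave -0.16 ± 0.15 for Homo against WT.

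Timp2 (chromosome 11, 118301069 to 118355740), a soluble inhibitor that also takes part in the activation of Mmp2, was at a lowest, median and highest level of 8.16, 8.97 and 11.6 CPM in WT, 9.15, 9.94 and 13.0 CPM in Het and 11.2, 11.9 and 13.0 CPM in Homo. A single WT mouse reached the Homo range, while Het was split between low and high mice. Homo against WT was 0.39 ± 0.10 (1.31-fold; adjusted p = 0.0917), and it was 0.41 without mice 1 to 3 and 0.34 within mice 8 to 13 (adjusted p = 0.253 and 0.720). Leaving out WT mouse 2 brought Timp2 past the threshold (adjusted p = 0.0417), and leaving out WT mouse 9 did so for Timp3 (adjusted p = 0.0359). Timp1, the inhibitor best known as a marker of fibrogenic activity, was low and erratic, at 0.0880 to 1.56 CPM in WT, 0.0841 to 0.473 CPM in Het and 0.379 to 1.29 CPM in Homo. It was read at 3 to 62 counts, and its log2 fold change was 1.25 ± 0.58 for Homo against Het (adjusted p = 0.792) and 0.20 ± 0.53 for Homo against WT (adjusted p = 0.914).

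**Figure D3:**
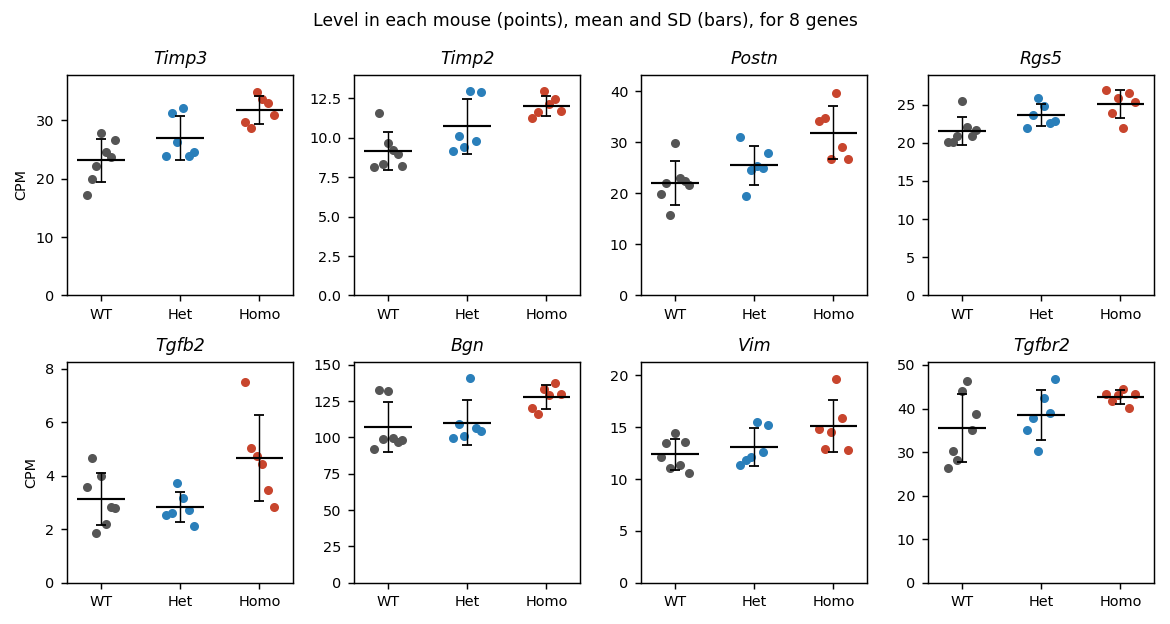
CPM in each mouse (points) with mean and SD (bars) by genotype for the 8 genes that passed an unadjusted p under 0.05 in Homo against WT (WT n = 7, Het n = 6, Homo n = 6). Timp3 is the one panel where every Homo mouse (28.7 to 34.9 CPM) lies above every WT mouse (17.2 to 27.8 CPM), and in the others at least 1 WT mouse reaches the Homo range.

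Related genes outside the 36 gave few calls. Of 17 collagens, 28 other matrix proteins, 20 collagen-processing and crosslinking enzymes, 18 other metalloproteinases and inhibitors and 18 further stellate cell markers, edgeR called 0 in Homo against WT. At an unadjusted p under 0.05, 1 collagen was higher and 2 were lower, 2 other matrix proteins higher and 1 lower, 1 enzyme higher and 1 lower, 2 metalloproteinases lower and 1 stellate cell marker (Hand2) higher. Of all genes, 12.9% passed that rule in either direction and 6.37% in the higher one. The collagens Col12a1 and Col18a1 gave 0.75 ± 0.19 (adjusted p = 0.0908) and -0.27 ± 0.07 (adjusted p = 0.0768), and Efemp1, a fibulin, gave 0.53 ± 0.13 (adjusted p = 0.0832). All 17 collagens had a log2 fold change of Het against WT below 0, with a median of -0.21 and 0 called. Of all genes, 49.1% were above 0, with a median of -0.0043. Over the mouse number described below, 3 collagens (Col4a1, Col4a2 and Col18a1) were called for a falling slope, and 4 of the 17 slopes were above 0. Among 9 portal fibroblast markers, Gas6, a ligand of TAM receptors, was called higher in Homo than in WT, at 0.61 ± 0.13 (adjusted p = 0.0445). That call held in 7 of 19 fits with 1 mouse left out (adjusted p from 0.0274 to 0.117), and without mice 1 to 3 the adjusted p was 0.234. Of the 9, 8 had a log2 fold change of Homo against WT above 0, with a median of 0.29. Over all genes, 50.3% were above 0, with a median of 0.0019, and 0.480% were called. Thy1 (1.03 ± 0.36; adjusted p = 0.237) and Pi16 (1.73 ± 0.57; adjusted p = 0.207) were also higher at an unadjusted p under 0.05. The summed level of that list ran from 67.5 to 118.9 CPM in WT and from 88.75 to 122.2 CPM in Homo. Smooth muscle markers summed to between 280.1 and 329.6 CPM in WT and 264.1 and 335.7 CPM in Homo, mesothelial markers to between 3.20 and 12.1 and 9.76 and 14.3 CPM, and macrophage markers to between 280.8 and 384.8 and 267.7 and 377.5 CPM. Endothelial markers summed to between 354.7 and 380.3 CPM in WT and 321.4 and 380.8 CPM in Homo, and leukocyte markers to between 47.8 and 78.3 and 53.5 and 74.6 CPM. No gene of the smooth muscle, mesothelial, macrophage, leukocyte or endothelial lists was called in any genotype comparison by edgeR (in Homo against WT, Msln was higher and Cd5l, Stab1, Stab2, Lyve1 and Oit3 were lower at an unadjusted p under 0.05), and the part of these cells and of portal fibroblasts in the differences above was not tested.

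The sample titles end in a number, here the mouse number, whose meaning the labels do not give. Mice 1 to 3 are all WT and mice 15 to 18 all Homo. WT numbers end at 13 and Homo numbers begin at 8, so number and genotype are partly aligned. In a fit with genotype and number together, 2 of 36 members (5.56%) were called for a slope, where 6.40% of all genes were, a share near the background. Tgfbr2 rose by 0.028 ± 0.0079 log2 units per number (adjusted p = 0.0413): WT mice 1, 2 and 3 were at 26.3, 30.2 and 28.2 CPM, while WT mice 9, 11, 12 and 13 were at 43.9, 46.3, 35.1 and 38.7 CPM. Within WT, the 3 mice of low number were therefore below the other 4. Thbs2 fell by 0.054 ± 0.016 log2 units per number (adjusted p = 0.0470), with WT mouse 2 highest at 6.60 CPM and WT mouse 13 lowest at 1.94 CPM. Neither was called without mice 1 to 3 (adjusted p = 0.388 for Tgfbr2 and 0.149 for Thbs2).

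**Figure D4:**
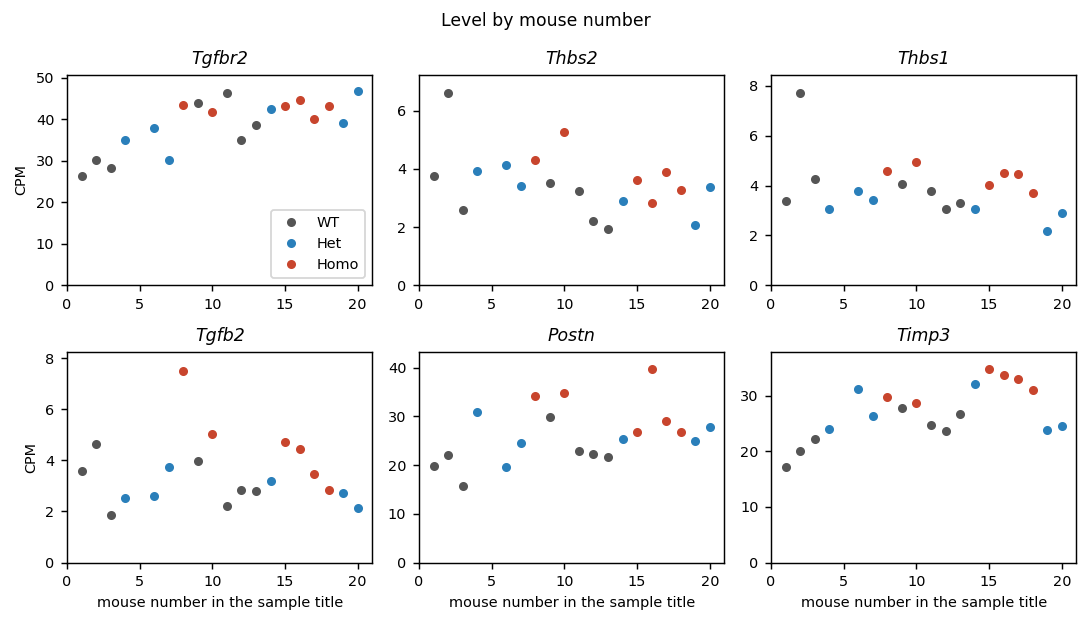
CPM against mouse number for 6 genes, coloured by genotype. In the Tgfbr2 panel WT mice 1 to 3 (26.3 to 30.2 CPM) are lowest together with 1 Het mouse, and in the Thbs2 panel WT mouse 2 is highest at 6.60 CPM.

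Over the 19 mice, some members varied together. Among 8 pairs set out in the design, 4 passed at an adjusted p under 0.05 by permutation on log2 CPM. Lum and Dcn, both small proteoglycans, had Pearson's r = 0.71 and Spearman's rho = 0.74 (permutation p = 0.00057 and 0.00043; adjusted p = 0.00228 and 0.00172), and r was 0.65 without the 2 mice farthest from the median of Lum. Mmp12 and the macrophage gene Cd68 had r = 0.78 and rho = 0.74 (permutation p = 0.00011 and 0.00041; adjusted p = 0.00088 and 0.00172), and 0.78 without the 2 farthest mice. Tgfb1 and Ptprc, the common leukocyte antigen, had r = 0.58 and rho = 0.52 (permutation p = 0.00834 and 0.0247; adjusted p = 0.0222 and 0.0495), and 0.46 without 2 mice. Timp1 and Col1a1 had r = 0.53 and rho = 0.55 (permutation p = 0.0198 and 0.0162; adjusted p = 0.0396 and 0.0431), 0.47 without 2 mice and 0.38 once genotype and mouse number were removed. Within genotypes, r of Lum and Dcn was 0.85 in WT, 0.34 in Het and 0.08 in Homo, and that of Mmp12 and Cd68 0.98, 0.79 and 0.53. Tgfb1 and Ptprc gave 0.54, 0.79 and 0.71 within WT, Het and Homo, while Timp1 and Col1a1 gave 0.59, -0.44 and 0.71. These within-genotype values rest on 6 or 7 mice each and were not tested.

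The 2 contractile genes were not among those that passed. Acta2 and Tagln had r = 0.33 and rho = 0.43 (permutation p = 0.165 and 0.0709; adjusted p = 0.188 and 0.113), and 0.24 without 2 mice. Acta2 with Myh11, a myosin of smooth muscle, gave r = 0.40 and rho = 0.36 (adjusted permutation p = 0.117 and 0.151). Postn with Col1a1 gave r = 0.41 and rho = 0.41 (adjusted permutation p = 0.117 and 0.115), and Lrat with Reln r = 0.19 and rho = 0.09 (adjusted permutation p = 0.427 and 0.699).

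All 630 pairs among the 36 members were then examined, a step chosen after the data were seen. Of these, 56 passed at an adjusted permutation p under 0.05 for Pearson's r, 54 positive and 2 negative, and 33 passed for Spearman's rho. The median r of the 630 was 0.27, 0.25 after genotype means were removed and 0.22 without WT mouse 2. After genotype means were removed, each member's median r with all genes tested lay between -0.012 (Acta2) and 0.025 (Lox). Its median r with the other members lay between -0.295 (Tagln) and 0.48 (Pdgfra). The share of passing pairs over all genes was not computed. Pdgfra and Bgn had the highest, with r = 0.87 and rho = 0.88 (permutation p = 1e-05 for each, the smallest that 100000 permutations can give; adjusted p = 0.0021) and 0.86 without 2 mice. Dcn with Bgn gave r = 0.86, Pdgfra with Dcn 0.85, Pdgfra with Mmp2 0.84 and Bgn with Timp2 0.80, all of them also past the threshold by rho. Eln and Lox, elastin and its crosslinker, gave r = 0.63, and 0.83 after genotype means were removed. Both negative pairs held Tagln, with Mmp2 (r = -0.65) and with Dcn (r = -0.64; not past the threshold by rho, adjusted p = 0.161). Each gene's level in a mouse comes from the same library as the others, so composition and depth are shared within a pair.

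**Figure D5:**
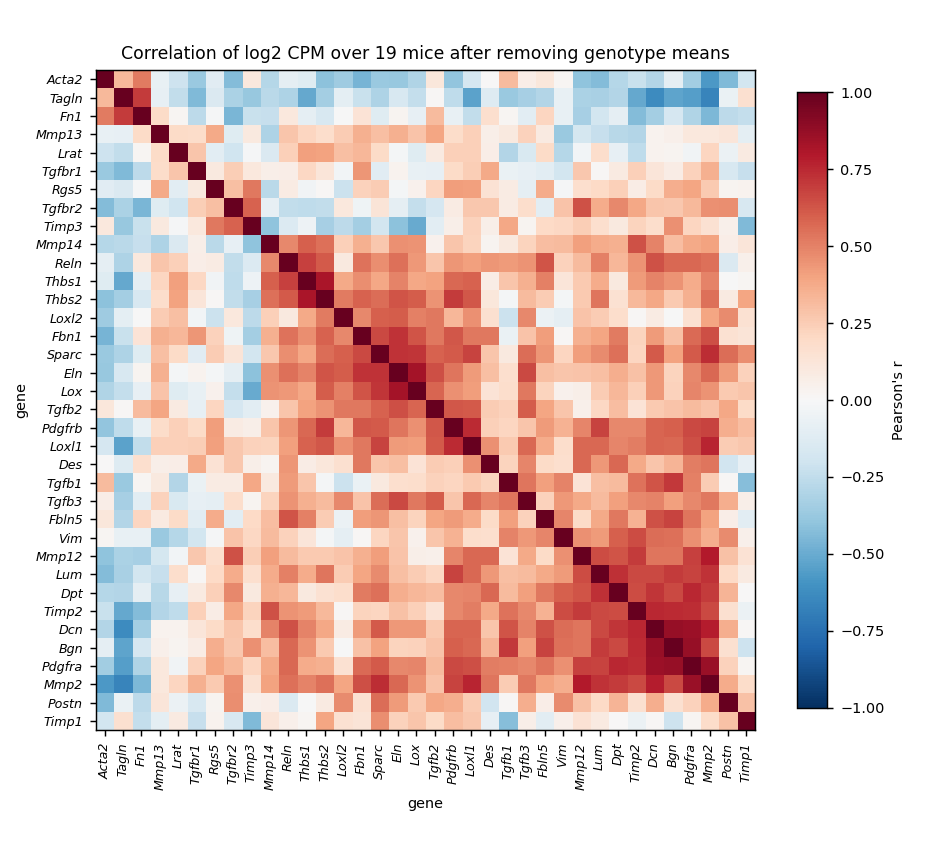
Pearson's r between members over 19 mice on log2 CPM after removing genotype means (colour scale from -1 to 1), genes ordered by likeness. A block with Pdgfra, Bgn, Dcn, Mmp2, Timp2, Lum and Dpt is dark red, with r = 0.87 for Pdgfra and Bgn, while Acta2, Tagln and Fn1 sit apart, mostly blue against that block.

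Pdgfra and Acta2 were also set against 7 markers of other cells or states, 14 pairs chosen after the data were seen. Pdgfra had r = 0.78 with Ptprc (rho = 0.76; adjusted permutation p = 0.0021 and 0.00434), 0.72 with Col1a1 (rho = 0.73; 0.00378 and 0.0049) and 0.58 with Cd68 (rho = 0.63; 0.0456 and 0.0196), and r was 0.81, 0.71 and 0.49 without the 2 farthest mice. With Colec11, a stellate cell marker, it had r = 0.42 (adjusted p = 0.156), and with the endothelial Pecam1 and the hepatocyte gene Alb 0.03 and -0.12, none of these past the threshold. Acta2 passed with none of the 7, and its r with Col1a1 was -0.46 (adjusted permutation p = 0.156).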

How the data were processed

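Liver RNA of 19 mice was grouped as WT, Het and Homo by the labels' genotype. The values are gene counts as the authors deposited them, whole numbers with no normalization. Those of Loxl2 lie on steps of a common size in all 19 libraries, as 330, 410, 180 and 315 in WT mice 1, 2, 3 and 9. Those of Mmp2 are even numbers in every library but that of Homo mouse 16 (225). Plain counting of reads would hardly give either pattern. The source is not known, and the values of both genes are uncertain. Per the submitters' processing notes, the tools were STAR 2.7.2b and featureCounts 1.6.4 on GRCm38. Neither annotation nor strand setting nor multiple-match handling is given in the sources used here. Of the rows, 27 carry a date in place of a symbol; they make 0.145% to 0.174% of a library, stayed in the totals and are named in no result. Libraries of the same genotype all differed beyond sampling noise (chi-square per df at least 21.6).

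Counts were analysed in R 4.3.3 with edgeR 4.0.16: TMM normalization, filterByExpr by genotype, glmQLFit and glmQLFTest on all 19 libraries with genotype as the factor, two-sided, Benjamini-Hochberg over 16463 genes. A second fit added the mouse number. CPM uses TMM library sizes and log2 CPM a prior count of 2. Each SE is the estimate over the root of the test's F. Exon lengths and overlaps come from GENCODE vM21 on GRCm38. Alternatives were DESeq2 1.42.0, limma-voom (limma 3.58.1), other size factors, filters, thresholds and sample sets. The scripts were tested on simulated data. All members are accounted for; those given in full are the 2 of each role that ranked first by p (Homo against WT), and of other lists the called genes or at most 2 that ranked first. Values of Acta2, Thbs1 and Timp1, and the other-list genes named at an unadjusted p under 0.05, were added after they were seen. The members and lists were chosen with earlier results of these data known. Of the genes listed, 1 has no row and is not used here.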

Additional observations from a re-analysis of the deposited data

Results flagged for a closer look

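In 6 of 108 groups (36 genes in 3 genotypes), the highest or lowest mouse stood apart from the others of its genotype by Dixon's 95% criterion, which chance alone passes in about 1 group in 20. Rgs5, a pericyte and stellate cell gene, was at 25.4 CPM in WT mouse 9, above the other WT mice. The TGF-beta receptor Tgfbr1 was at 57.3 CPM in Het mouse 4, below the other Het mice. Thbs1 (thrombospondin-1) was at 7.70 CPM in WT mouse 2, the highest of all 19 mice. Biglycan (Bgn) was at 141 CPM in Het mouse 14, above the other Het mice. Dermatopontin (Dpt) was at 4.14 CPM in Homo mouse 10, below the other Homo mice, and the collagenase Mmp14 was at 13.7 CPM in Het mouse 20, above the other Het mice.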

How the results depend on the processing

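Het against WT and Homo against Het had 0 members called under every alternative run. In Homo against WT, 3 members (Postn, Timp2 and Timp3) passed at an adjusted p under 0.10 (1.07% of all genes) and with DESeq2 (1.93%), 1 (Timp3) with a filter of 1 CPM in at least 6 libraries (0.572%) and 1 (Timp3) with limma-voom (0.553%). Leaving out 1 mouse at a time gave 0 to 2: 1 without WT mouse 2 (Timp2; 0.383% of all genes) and 2 without WT mouse 9 (Postn and Timp3; 0.480%). For the mouse number, 0 members were called with no filter on low counts (3.15% of all genes) and 0 without mice 1 to 3 (2.13%). Without a genotype term 1 (Tgfbr2) was called, beside 11.1% of all genes. With 1 mouse left out, 0 to 2 were called, beside 3.94% to 6.60% of all genes. The count was 0 without mouse 1, 2, 4, 7, 11, 13, 14 or 15, 2 without mouse 17, and 1 otherwise. DESeq2 size factors in edgeR left all 4 counts as they were. The count of 4 planned pairs passing was also 4 with a prior count of 0.5 and 4 on residuals after genotype and mouse number, where Acta2 with Myh11 took the place of Timp1 with Col1a1. The cause of these shifts was not tested. No called value changed sign. No paired analysis was possible because the labels give no replicate number that the genotypes share. Mmp13 (1 to 14 counts) and Timp1 (3 to 62 counts) had the fewest counts of the members. Counting error alone gives a coefficient of variation of 32.1% to 40.3% for Mmp13 and 21.5% to 35.0% for Timp1, where that between mice of a genotype was 41.4% to 69.1% and 59.6% to 94.8%.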
